A study of Mus musculus with 11 samples.

Results

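LSK cells are the lineage-negative, Sca-1-positive, Kit-positive cells of mouse bone marrow, the fraction that holds the blood stem cells and the earliest multipotent progenitors. Their normal transcriptome is described here from 5 wild-type arrays (WT replicates 2 to 6) of the 11 arrays of the series. These are all the wild-type arrays of the table in which 9 arrays were normalized together; 4 Klf5 knockout arrays of that table are used only to see whether the same genes vary, and WT replicate 1, normalized in a separate table of 2 arrays, only to see whether calls repeat. Per the labels, the mice were C57BL/6, all samples including the wild type are labelled with Mx1-Cre, a recombinase driven by an interferon-responsive promoter, and LSK cells were stained and sorted from low-density marrow. No inducing treatment, age or sex is given in the labels used here, and the antibodies of the lineage stain are not named. The biotin-labelled RNA was read on Affymetrix Mouse Gene 1.0 ST arrays, which carry probes along each transcript.

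LSK cells are selected for Kit, the receptor for stem cell factor, and for Sca-1, the surface protein encoded by Ly6a. Within the fraction, cells that have gained Flt3, a receptor tyrosine kinase, and Cd34, a sialomucin, are multipotent progenitors, while the long-term stem cells of the adult mouse have low levels of both. Multipotent progenitors begin to transcribe genes of several mature lineages at low level before they commit, which is called lineage priming.

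Signals are log2 values from RMA, so a difference of 1 is a doubling of signal. Of 35556 rows on the array, 28944 read genes, 5222 are negative controls and 1324 are positive controls. After merging rows by symbol (the row of highest mean was kept), 22145 genes were available. The gene rows of the 5 arrays had medians of 5.97 to 6.03, and the 95th percentile of the negative controls lay between 8.98 and 9.34. The arrays correlated at Pearson's r of 0.9712 to 0.9808 over the gene rows, except WT replicates 2 and 6, which correlated at 0.9927. Whether these samples share material was not tested. Sex-linked genes also set arrays apart: the Y-linked Ddx3y was at 8.78, 9.37, 9.10, 4.77 and 7.88 in WT replicates 2, 3, 4, 5 and 6, and Xist at 4.88, 4.74, 5.47, 11.06 and 10.49 in the same order. Replicate 6 thus had both signals. Values of single arrays are given below in this order, replicates 2 to 6.

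The negative controls turned out to spread widely, so a gene had to be very bright to pass them. A row was called above them when its signal minus the array's own 95th percentile of negative-control rows was over 0 with a limma adjusted p under 0.05. By this strict yardstick 1542 of 28944 gene rows were above (5.33%) and 26391 below (91.2%), while 1011 could not be told apart from it. Of the negative-control rows themselves, 140 (2.68%) were called above. They were taken by their name in the annotation, and what their probes bind was not examined. As 9 of 24 housekeeping genes were called below them, such a call is not evidence that a transcript is absent. A lenient yardstick, chosen after the data were seen, was the 95th percentile of 1148 olfactory receptor rows, genes read mainly in sensory neurons, which lay between 5.76 and 6.02. Above it were 13775 rows (47.6%) and below it 12173 (42.1%). This yardstick passed 27.2% of the negative-control rows and 15 of 36 genes of tissues outside blood, such as Tnni3, a heart troponin, at 7.51 ± 0.37 (SD, n = 5, as for every ± below). Being above it is therefore weak evidence of a transcript. The mean of Tnni3, the highest of those 36, gives a middle mark, and 4376 genes (19.76%) had a higher mean. This mark comes from the same data and was not a planned threshold.

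**Figure D1:**
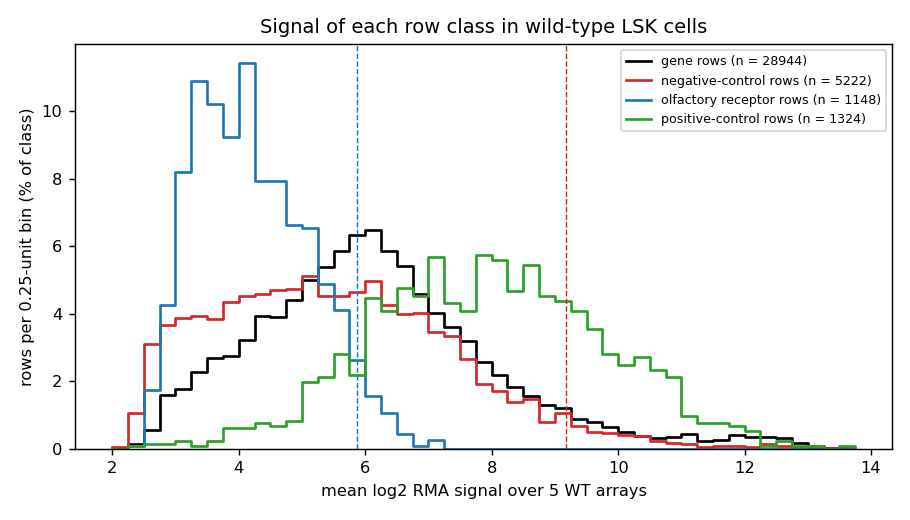
Percent of rows in each bin of mean log2 RMA signal over the 5 WT arrays, by class of row. Dashed lines mark the mean over arrays of the 95th percentile of the negative controls (right) and of the olfactory receptors (left); the negative controls reach far up the scale, and only 5.33% of the gene rows were called above their line.

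Signals of different genes also depend on how well their probes bind, so the order of genes is approximate. In a bulk sample, fewer cells with a transcript and less transcript per cell cannot be told apart. In WT replicate 1, which took no part in the calls, 1516 of the 1542 rows called above the negative controls (98.3%) were over that array's own negative-control percentile, against 2.13% of those called below. With the olfactory yardstick the shares were 98.1% and 9.54%.

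All 4 markers of the fraction and of its early progenitors had 5-array means over the middle mark, Ly6a by less than its SD. Kit and Cd34 were among the brightest 4% of gene rows. Kit was at 10.22, 10.17, 10.38, 10.09 and 10.22, a mean of 10.22 ± 0.11. Every array put Kit over the negative controls, by 1.04 on the log2 scale (95% interval 0.75 to 1.32, limma adjusted p = 2.0e-05). Cd34 was at 10.81, 10.07, 10.43, 9.82 and 10.61, with a mean of 10.35 ± 0.40, and lay 1.17 over the negative controls (0.72 to 1.62, limma adjusted p = 0.00024). Flt3 was at 9.51, 8.34, 8.79, 7.83 and 9.34, a mean of 8.76 ± 0.70. Replicates 2 and 6 were over the negative-control percentile and the other arrays under it, so Flt3 was not told apart from it (difference -0.42, 95% interval -1.06 to 0.22, limma adjusted p = 0.17). Without replicates 2 and 6 it was called below, by -0.99 (limma adjusted p = 0.0096).

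Ly6a, although its protein is a sorting marker, had a lower signal, at 8.29, 7.59, 7.56, 6.85 and 8.07 with a mean of 7.67 ± 0.55. It lay below the negative-control percentile in every array, by -1.51 (95% interval -2.05 to -0.97, limma adjusted p = 0.00015), and over the olfactory percentile in every array, by 1.79 (1.24 to 2.35, limma adjusted p = 0.00019). Its mean was over that of 82.0% of gene rows. The SD of Kit was at percentile 26.9 of the gene rows, that of Cd34 at 88.1, that of Ly6a at 94.3 and that of Flt3 at 97.0. Replicate 5 was the lowest array for all 4 markers, and there Ly6a, at 6.85, lay under the middle mark.

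Promoter sequences from RefSeq (GRCm38.p6) were compared with the signal, because CpG-rich starts are typical of broadly used genes. For 13864 genes the 250 bases before the first listed start were read, and the CpG ratio was the count of CG over that given by the C and G content. The median ratio was 0.84 for 524 genes above the negative controls outside the ribosomal proteins, against 0.35 for 4419 genes below the olfactory percentile and 0.63 for all. A ratio over 0.6 was found in 81.3% of the first and 27.6% of the second. TATAAA, searched on both strands, was in 8.40% and 15.3%, against 9.50% of all. Kit and Cd34 are shown because both are bright but differ in these letters. Kit has 17 CG with a ratio of 0.60 (first of 2 listed starts), just under the median of all genes and well under that of the bright ones. Cd34 has 6 with a ratio of 0.45, closer to the genes of low signal. Neither holds TATAAA. The bases run 5′ to 3′ on the gene's strand, with each CG in capitals.
Kit, chr5:75574737-75574986, plus strand: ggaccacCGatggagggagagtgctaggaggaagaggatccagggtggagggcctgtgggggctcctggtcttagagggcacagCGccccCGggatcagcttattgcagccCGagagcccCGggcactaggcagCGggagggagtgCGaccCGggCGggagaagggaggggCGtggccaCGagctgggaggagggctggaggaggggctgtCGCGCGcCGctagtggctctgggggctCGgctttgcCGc
Cd34, chr1:194938571-194938820, plus strand: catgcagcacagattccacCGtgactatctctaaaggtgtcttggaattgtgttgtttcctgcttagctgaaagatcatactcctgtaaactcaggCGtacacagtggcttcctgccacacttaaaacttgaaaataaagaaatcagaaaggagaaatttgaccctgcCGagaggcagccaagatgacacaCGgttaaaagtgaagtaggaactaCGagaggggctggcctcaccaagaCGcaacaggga

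The highest signals belonged to the machinery of protein synthesis. Of the 25 brightest named genes 18 were ribosomal proteins, led by Rps20 (13.13 ± 0.09), Rps28 (13.01 ± 0.10) and Rps12 (12.98 ± 0.02). The others of the 25 included Gas5 (12.93 ± 0.04), a host gene of small nucleolar RNAs, Eef1a1 (12.81 ± 0.11), which brings tRNA to the ribosome, and Pabpc1 (12.74 ± 0.09), the poly(A)-binding protein. Tpt1 (12.74 ± 0.07), Tmsb10 (12.66 ± 0.09), an actin-binding thymosin, and Taf1d (12.67 ± 0.07) were also there. Taf1d was there through 1 of its 10 rows, and the others lay between 7.68 and 10.18. In the brightest 1% of rows, 49 of 73 named genes were ribosomal proteins, against 108 of 17685 named genes in all.

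The brightest outside the first 25 included Calm2 (12.64 ± 0.11), a calmodulin, the nuclear RNA Malat1 (12.64 ± 0.10) and Ptma (12.60 ± 0.07). A row named Ino80 at 12.62 had the same mean and SD as rows named Rpl35a, a ribosomal protein, and another Ino80 row was at 8.32, so the bright value is not read as that of Ino80. The histone variant gene H2az1 was at 12.46 ± 0.11, Actb at 12.38 ± 0.13, Stmn1, a regulator of microtubules, at 12.33 ± 0.03, B2m, the light chain of MHC class I, at 12.30 ± 0.10, and the nucleolar Npm1 at 12.20 ± 0.14. By the annotation in the files, "translation" was given to 67.6% of annotated genes in the brightest 1% and to 1.53% of all annotated genes. In the brightest 5%, "mRNA processing" was given to 9.45% against 1.5% of all, "RNA splicing" to 8.46% against 1.15%, and "integral to membrane" to 10.5% against 24.1%. All 24 housekeeping genes were over the olfactory percentile and 13 over the negative controls, against 49.7% and 798 of all 22145 genes. Their list median was 10.05 against 6.08 for all genes, and Tbp, the TATA-binding protein, was the lowest at 7.58 ± 0.16.

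**Figure D2:**
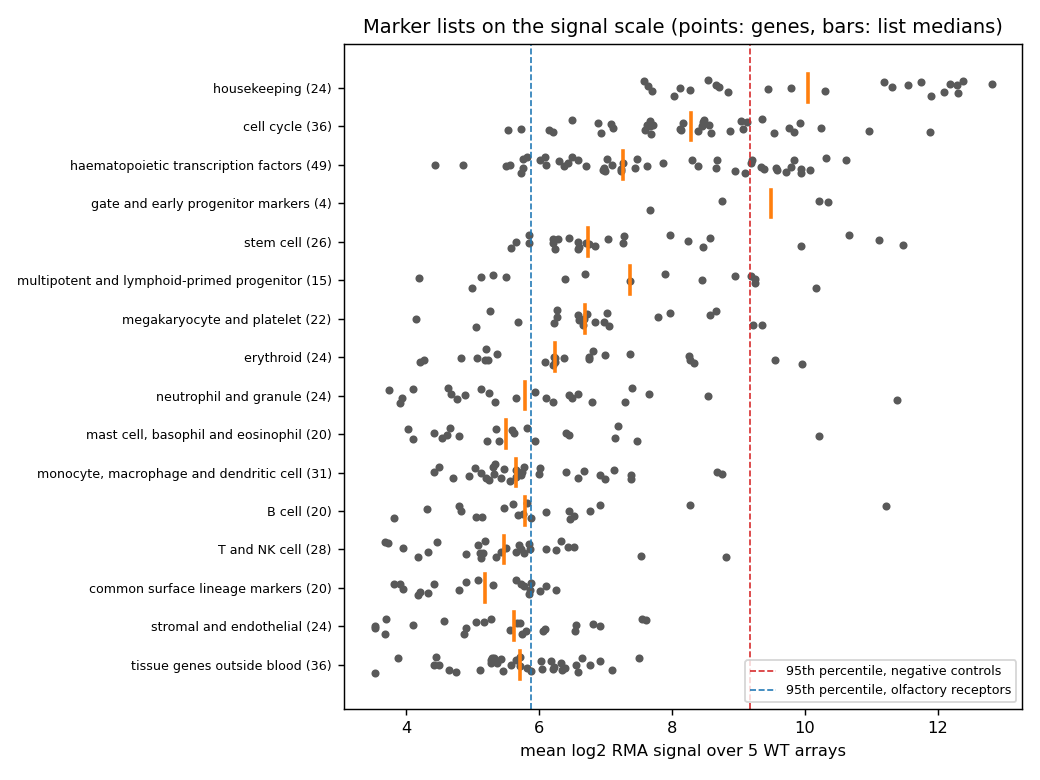
Mean log2 RMA signal over the 5 WT arrays of each member of 16 gene lists (number of genes in brackets). Points are genes, orange bars list medians, and dashed lines the mean 95th percentile of the olfactory receptors (left) and of the negative controls (right). List medians are 10.05 for housekeeping and 8.28 for cell cycle genes, 6.70 for megakaryocyte and 6.24 for erythroid genes, and 5.19 for surface lineage markers, against 5.71 for genes of tissues outside blood.

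Stem cell genes covered a wide range. Of 26, 4 were above the negative controls and 22 (84.6%) above the olfactory percentile, with a list median of 6.73. Of all 22145 genes, each by its row of highest mean, 798 were above the negative controls and 49.7% above the olfactory percentile. Ifitm3 (11.48 ± 0.13) and Ifitm1 (11.12 ± 0.29), interferon-inducible membrane proteins, Angpt1 (10.66 ± 0.07), the ligand of the Tek receptor, and Hlf (9.94 ± 0.23), a PAR bZIP factor of stem cells, were the bright ones. Mllt3 had 8.46 ± 0.38 and Myct1 8.24 ± 0.15. Many markers that define the rare long-term stem cell lay low: Slamf1, which encodes CD150, at 6.58 ± 0.31, Procr, the protein C receptor, at 6.28 ± 0.14, Fgd5 at 6.23 ± 0.07, Tek at 5.85 ± 0.15, Esam at 5.65 ± 0.20 and Hoxb5 at 5.57 ± 0.13. Mecom, a zinc-finger factor needed by stem cells, was the most variable, at 7.50, 6.61, 7.50, 6.55 and 8.14. Its highest values came from replicates 2, 4 and 6, and its second row had an SD of 0.30.

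The genes of multipotent and lymphoid-primed progenitors had a list median of 7.36. Above the olfactory percentile were 10 of 15 (66.7%), against 49.7% of all genes. Only Cd53, a tetraspanin, passed the negative controls, at 10.16 ± 0.29. Cd27 (9.25 ± 0.26), Mef2c (9.19 ± 0.24) and Satb1 (8.95 ± 0.66), a chromatin organiser of lymphoid priming, lay close to the negative-control percentile and were not told apart from it. Cd48 was at 8.46 ± 0.19. Dntt, the terminal transferase of early lymphoid cells, was at 9.26, 6.94, 7.86, 6.05 and 9.39. Genes of the next lymphoid steps were at the low end: Il7r, the interleukin-7 receptor, at 5.51, 4.79, 4.96, 5.05 and 6.19, Rag1 at 5.84, 5.07, 5.03, 4.98 and 6.61, and Rag2, at the lowest mean of the list, at 5.54, 3.67, 3.38, 3.45 and 4.92. Replicates 2 and 6 were the highest arrays for Dntt, Il7r, Rag1 and Rag2 alike.

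Surface markers of mature cells, the kind of gene whose protein a lineage stain detects, lay low. All 20 were called below the negative controls by limma, a share near that of all genes, 20536 of 22145. None was over the middle mark, which 19.76% of all genes passed. Above the olfactory percentile were 2, Cd8a (6.26 ± 0.16) and Siglech (6.01 ± 0.08), against 49.7% of all genes. The list median was 5.19. The lowest were Ms4a1, which encodes CD20, at 3.81 ± 0.13, the neutrophil antigen Ly6g at 3.91 ± 0.15, the NK receptor gene Klrb1c at 3.94 ± 0.10 and Ncr1 at 4.18 ± 0.17. All 24 stromal and endothelial genes were called below the negative controls, again a share near that of all genes. Pecam1, an adhesion molecule that blood progenitors also carry, was the highest at 7.62 ± 0.12. Lum (3.53 ± 0.26), Kitl (3.54 ± 0.25) and Lepr (3.70 ± 0.09) were at the bottom.

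The B cell list had a median of 5.79, with 6 of 20 (30.0%) above the olfactory percentile, against 49.7% of all genes. Its brightest member, Cd24a (11.23 ± 0.31), is also carried by many progenitors and red cell precursors. Vpreb1, a part of the surrogate light chain of early B cell precursors, was at 10.16, 5.93, 6.44, 7.21 and 11.62, the largest SD (2.49) of any gene above the olfactory percentile. Replicates 2 and 6 were more than 4 log2 units over the lowest array, replicate 3. Its partner Igll1 was at 6.62, 6.12, 6.01, 6.17 and 7.42. The factors that commit cells to the B lineage had low means, Pax5 at 5.81 ± 0.18 and Ebf1 at 5.76 ± 0.31. A second Ebf1 row had a mean of 5.26 and a wider spread between arrays, with an SD of 1.43. H2-Ab1, an MHC class II gene of antigen-presenting cells, stood out in 1 array, at 7.10, 6.84, 7.06, 7.06 and 8.82.

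Of 28 T and NK cell genes 7 were above the olfactory percentile, 27 were called below the negative controls and 1, Nkg7, was not told apart from them. Nkg7, a granule membrane protein, was the highest at 8.17, 9.61, 9.23, 8.71 and 8.36, and the adaptor Lat followed at 7.53 ± 0.50, while Cd3d (4.33 ± 0.07), Klrd1 (3.72 ± 0.10) and Trat1 (3.68 ± 0.15) were near the bottom of the scale. Of 31 monocyte, macrophage and dendritic cell genes 10 (32.3%) were above the olfactory percentile, against 49.7% of all genes. Besides Flt3, Tcf4 (8.68 ± 0.23), an E protein, and Cd68 (7.38 ± 0.43) were the highest, and Adgre1 (4.42 ± 0.08), Mrc1 (4.50 ± 0.09) and Csf1r (5.12 ± 0.08), the receptor of macrophage growth factor, were low.

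The neutrophil and erythroid lists held a few bright genes above many low ones. Mpo, the myeloperoxidase of granulocyte-monocyte progenitors, was at 10.84, 11.59, 11.91, 11.56 and 11.01, a mean of 11.38 ± 0.44. It was the 1 neutrophil gene of 24 above the negative controls, a share near that of all genes, 798 of 22145. Ctsg, cathepsin G, had 8.55 ± 0.63 and Prtn3, proteinase 3, 7.40 ± 0.33, whereas genes of later granules were low, Ltf, lactoferrin, at 4.67 ± 0.10, Lcn2 at 4.63 ± 0.10 and Mmp8 at 4.11 ± 0.09. The list median was 5.79, against 6.08 for all genes. Above the olfactory percentile were 10 of 24 (41.7%), against 49.7% of all genes. Among 20 mast cell, basophil and eosinophil genes, 5 were above it. Next to Kit, Gata2 (7.47 ± 0.26), Mcpt8 (7.19 ± 0.72), a basophil protease, and Cpa3 (7.14 ± 0.29) led, and Il5ra (4.03 ± 0.14) and Mcpt4 (4.10 ± 0.06) were lowest.

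Of 24 erythroid genes 13 (54.2%) were above the olfactory percentile, near the 49.7% of all genes. Only 1, Car2, a carbonic anhydrase, was above the negative controls (9.95 ± 0.10), a share near that of all genes, 798 of 22145. Car1, a carbonic anhydrase of erythroid progenitors, was at 7.82, 10.79, 10.40, 9.80 and 8.95, lowest in replicates 2 and 6. The adult beta-globin gene Hbb-b1 ran the other way, at 9.85, 6.62, 6.72, 7.46 and 10.63, and the alpha-globin Hba-a1 at 7.72, 5.55, 6.09, 5.89 and 8.47. Their rows share sequence with near-identical globin copies, so the copies cannot be told apart. Alas2, the first enzyme of heme synthesis in red cells, was lower, at 6.23 ± 0.22. Of 22 megakaryocyte and platelet genes 18 (81.8%) were above the olfactory percentile, against 49.7% of all genes. Pf4, platelet factor 4, was at 8.12, 9.996, 10.54, 9.02 and 9.07, Plek, pleckstrin, at 9.22 ± 0.32, and Itga2b, which encodes CD41, at 6.98 ± 0.18, while the platelet receptor Clec1b had 4.14 ± 0.23.

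**Figure D3:**
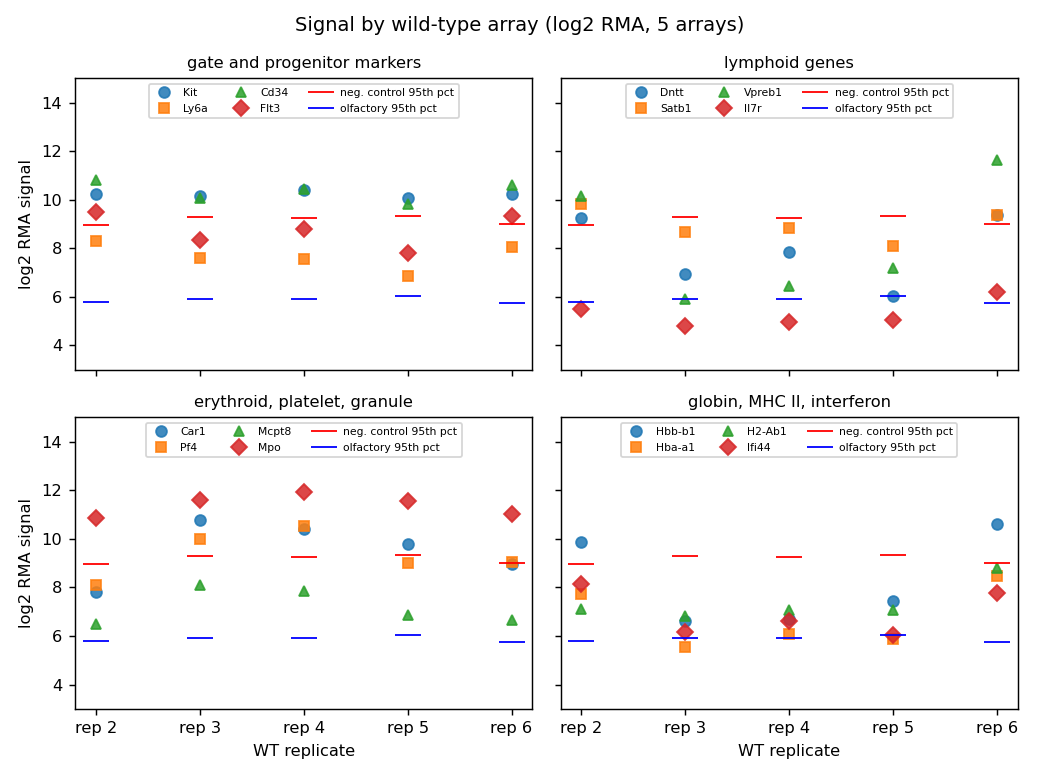
Log2 RMA signal of 16 genes in each WT array, in 4 panels. Red and blue dashes mark each array's 95th percentile of negative-control and of olfactory receptor rows; Kit stays between 10.09 and 10.38, while Vpreb1, Dntt and Hbb-b1 are highest in replicates 2 and 6 and Car1 is lowest there.

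Of the haematopoietic transcription factors, 10 of 49 were above the negative controls, against 798 of all 22145 genes. Above the olfactory percentile were 39 (79.6%, against 49.7% of all genes), with a list median of 7.26. Myc (10.63 ± 0.09), Myb (10.33 ± 0.03), a factor of progenitor growth, Meis1 (10.08 ± 0.23), Hlf, Etv6 (9.94 ± 0.15) and Ldb1 (9.84 ± 0.07) were the highest. Fli1 (9.79 ± 0.27), Lmo2 (9.71 ± 0.30), Elf1 (9.59 ± 0.27) and Bcl11a (9.57 ± 0.19) also passed. Runx1, required for the emergence of blood stem cells, was at 9.21 ± 0.21 and Erg at 9.35 ± 0.23, neither told apart from the negative-control percentile. Lower on the scale were Spi1 (7.23 ± 0.25), Cebpa (7.02 ± 0.31), Gata1 (7.0 ± 0.42), Gata3 (5.73 ± 0.26) and Irf4 (4.86 ± 0.13). Hhex was the most variable, at 8.96, 8.06, 7.90, 7.63 and 9.41.

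Among 32 cytokine and growth factor receptors Kit alone was above the negative controls, and 23 (71.9%) were above the olfactory percentile (list median 7.11). Of all 22145 genes, 798 were above the first and 49.7% above the second. Ifnar2 (9.35 ± 0.14), a chain of the type I interferon receptor, Il2rg (8.90 ± 0.62), the common gamma chain, and Ifngr1 (8.71 ± 0.39) were among the next, and Csf2ra was at 7.81 ± 0.16. Epor, the erythropoietin receptor, was at 6.22 ± 0.17, and Il7r, Csf1r and Il5ra were at the low end. Of 29 chemokine receptors and homing genes, Cxcr4 (9.90 ± 0.14), the receptor that holds stem cells in the marrow, and Itgb1 (9.67 ± 0.09), the beta1 integrin chain, were above the negative controls. A second Itgb1 row was at 7.06 and called below. Of the 29, 14 (48.3%) were above the olfactory percentile, near the 49.7% of all genes. Itga4 (9.27 ± 0.16) and Cd44 (8.41 ± 0.12) followed, whereas Ccr1 (3.61 ± 0.13) and Ccr8 (3.95 ± 0.11) were at the floor of the scale.

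Cell cycle genes were bright: 7 of 36 were above the negative controls and 33 (91.7%) above the olfactory percentile, with a median of 8.28. For all 22145 genes these were 798 and 49.7%. Pcna, the sliding clamp of DNA replication, was at 11.89 ± 0.26, Cdk6 at 10.96 ± 0.43, Top2a at 10.25 ± 0.30 (its other rows at 5.21 and 3.66 were called below), Cdk4 at 9.93 ± 0.41, Mcm6 at 9.83 ± 0.28 and Mki67, the Ki-67 antigen, at 9.53 ± 0.18. Of the inhibitors, Cdkn1b was the highest at 9.13 ± 0.45 and was not told apart from the negative-control percentile. A second Cdkn1b row, at 8.24, was called below. Cdkn1a had a mean of 7.60, and Cdkn1c (6.21 ± 0.10), Cdkn2a (5.73 ± 0.09) and Cdkn2c (5.53 ± 0.35) were low. Immediate early genes respond within minutes to stimuli and also to cell handling. Of 27, 3 were above the negative controls and 25 (92.6%) above the olfactory percentile (median 7.44), against 798 and 49.7% of all 22145 genes. Jun was at 10.38, 11.33, 11.37, 10.79 and 10.24, Zfp36 at 9.75 ± 0.24 and Egr1 at 8.58, 9.26, 9.30, 9.01 and 8.06. Replicate 6 was the lowest array for both Jun and Egr1.

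Interferon-response genes were listed because the Mx1 promoter of the Cre responds to interferon. Ifitm3 was the only 1 of 29 called above the negative controls, a share near that of all genes, 798 of 22145. Above the olfactory percentile were 17 (58.6%, near the 49.7% of all genes), with a list median of 6.45. Ifi27 (7.99 ± 0.15) and Ddx58 (7.44 ± 0.51), a sensor of viral RNA, were among the next, and the classical response genes Ifit1 (4.92 ± 0.32), Ifit3 (4.64 ± 0.15), Mx2 (4.49 ± 0.13) and Mx1 (3.53 ± 0.09) were among the low genes of the array. The mean over the list was 6.70, 6.36, 6.14, 6.18 and 6.55, and Ifi44, at 8.12, 6.17, 6.62, 6.04 and 7.76, was again highest in replicates 2 and 6.

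The test of variance between arrays made no calls, and had little reach. In the F test of each row's variance over limma's prior, 0 of 28944 rows were called (0%). The lowest adjusted p was 0.916, and 983 rows had an unadjusted p under 0.05. Against a prior of 2.22 degrees of freedom, even Vpreb1, with a range of 5.70 log2 units, had an unadjusted p of 0.0058 and an adjusted p of 0.916. The count of 0 therefore does not say that genes were steady. The median SD was 0.17 over all gene rows, 0.20 above the olfactory percentile and 0.15 above the negative controls. A range of more than 1 log2 unit was seen in 3421 rows (11.8%). It was seen in 7.52% of the rows above the negative controls.

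The genes of largest SD above the olfactory percentile, picked after their values were seen and without a test, were of several kinds. Vpreb1, the globins Hbb-b1 (SD 1.86) and Hbb-bt (1.86), Myl10 (1.71), a myosin light chain at 8.0, 6.61, 5.88, 6.87 and 10.28, and Dntt (1.45) were highest in replicates 2 and 6. Ptpn3, a tyrosine phosphatase, stood high in replicate 4 (7.91, 6.86, 10.23, 6.23 and 7.44), Itpr1, an intracellular calcium channel, in replicates 5 and 2 (8.77, 6.36, 6.59, 9.74 and 7.98), and Mxi1, a Myc antagonist, in replicate 3 (9.61, 11.10, 9.40, 8.04 and 9.79). Minpp1 was low in replicate 5 (7.91, 8.03, 8.11, 5.24 and 7.75). These values are of single rows: a second row had an SD of 0.19 for Mxi1, 0.25 for Itpr1 and 0.14 for Minpp1, and the 11 other rows of Ptpn3 had SDs of 0.06 to 2.02. Among the brightest 10% the 5 genes of smallest SD were Hnrnph1 (12.20, SD below the second decimal), Birc6 (8.90 ± 0.02), Tra2a (10.21 ± 0.02), a splicing factor, Eif5 (10.86 ± 0.02), a translation initiation factor, and Topors (8.74 ± 0.02). These too are values of single rows: other Tra2a rows, with means of 8.14 and 7.21, had SDs of 1.05 and 0.21. Hnrnph1 read 12.1960 in every array, and Topors 8.7329 in every array but replicate 4 (8.7747). Why arrays gave equal values was not tested, so these small SDs are not read as steady transcript levels. Over the 4 knockout arrays the SDs of these 5 genes were 0.08, 0.29, 0.05, 0.09 and 0.11, in the order named. That of Birc6 was at percentile 79.9 there, so its small SD did not repeat.

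**Figure D4:**
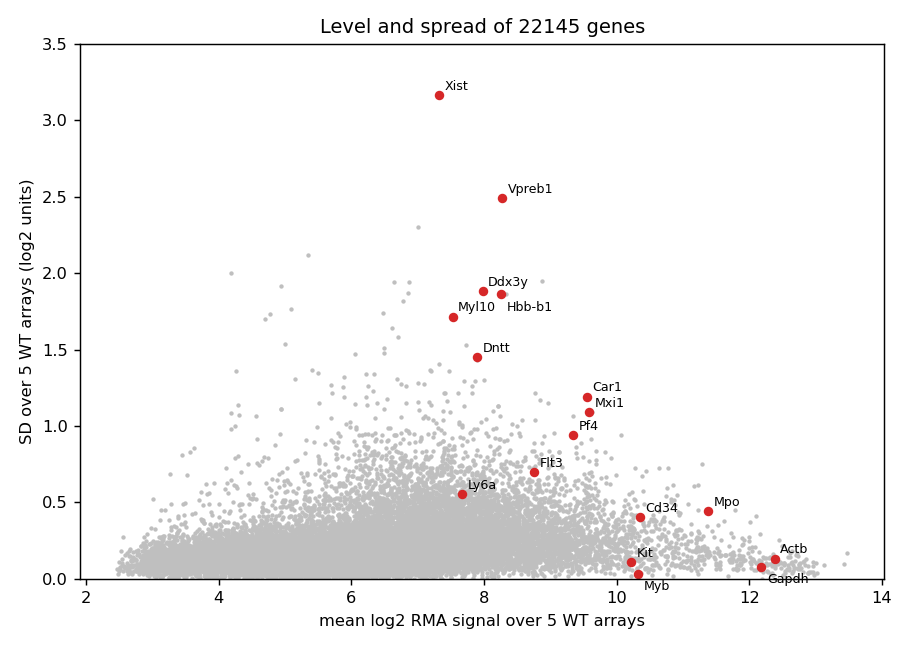
Mean log2 RMA signal (horizontal) and SD over the 5 WT arrays (vertical) of 22145 genes, each a grey point, with 17 genes named in red. Xist and Vpreb1 have the largest SDs of the named genes, and Kit, Myb, Actb and Gapdh lie at the bottom.

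The spread repeated in part in arrays that had not ranked it. Of the 138 rows in the top 1% of SD in wild type among those above the olfactory percentile, 51.4% were in the top 5% of SD over the 4 knockout arrays, against 0.726% of the rows in the 25% of lowest SD. For Vpreb1 the SD was 2.49 in wild type and 1.73 in knockout, for Hbb-b1 1.86 and 1.71, for Car1 1.19 and 1.86, and for Pf4 0.94 and 1.78. Other genes did not repeat: Mxi1 had 1.09 in wild type and 0.18 in knockout, Minpp1 1.22 and 0.08, and Itpr1 1.43 and 0.33. Among the 689 rows in the top 5% of SD, replicate 5 was the lowest array in 37.6%, against 27.0% of all rows, and replicate 2 the highest in 26.1%, against 19.7%.

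**Figure D5:**
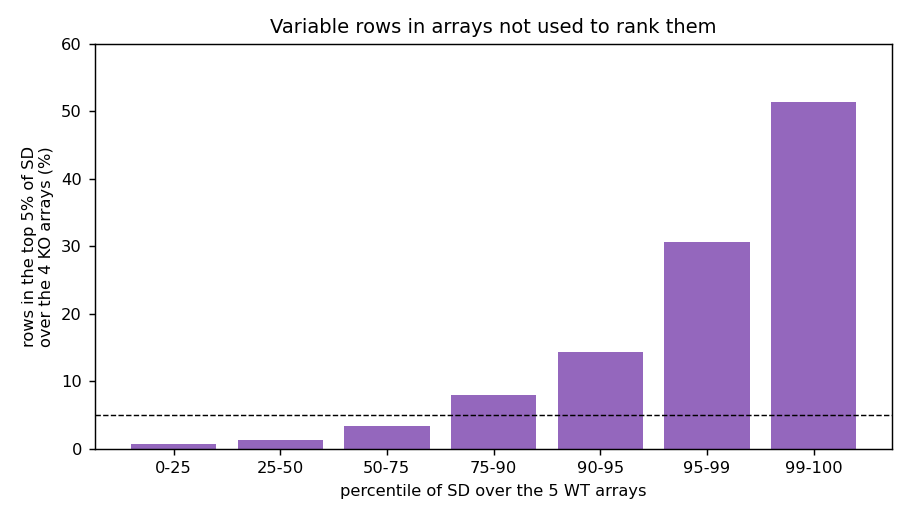
Share of gene rows above the olfactory percentile that lie in the top 5% of SD over the 4 KO arrays (vertical, percent), by their percentile of SD over the 5 WT arrays (horizontal). The dashed line marks 5%; the share is 0.726% in the lowest bin and 51.4% in the highest.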

How the data were processed

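The authors deposited log2 RMA signals per gene, with default gene-level settings per the file headers, made in Affymetrix Expression Console per the submitters' processing notes (version not given in the sources read). Column numbers in the RMA tables differ from the samples' replicate numbers, so each column was tied to its sample by equality (within 5e-05) with the deposited value table. In the tables, 1 column of per-sample values was not used (a knockout array of the 2-array table). Symbols were updated through RefSeq accessions (22169 rows matched, 2345 symbols changed); 25523 gene rows had 1 symbol, 2 several and 3419 none.

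Signal minus each array's own 95th percentile of negative-control rows was fitted with limma 3.58.1 in R 4.3.3 (lmFit and eBayes with trend, two-sided, Benjamini-Hochberg over 28944 rows, threshold 0.05). Row variance (4 degrees of freedom) was set against limma's robust trended prior by a one-sided F test. Both were also run on simulated data, with normal noise and variances drawn from the fitted prior. These are the tests' own assumptions, so that run cannot show how they behave on these arrays. Figures were drawn with matplotlib 3.10.9. Alternatives were 90th and 99th percentiles, other normalizations and variance priors, the value table and each array left out. The olfactory percentiles, the middle mark and leaving out WT replicates 2 and 6 were added after the data were seen.

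The arrays and 21 gene lists were chosen with earlier results of these data known. The rule for named genes took the 4 gate markers, the 25 brightest genes and 15 more outside the ribosomal proteins. It also took 10 bright genes of smallest SD, and per list the brightest, dimmest and most variable members. Genes named beyond this rule were chosen after their values were seen. The rule passed over predicted genes, RIKEN clones, small RNAs, mitochondrial genes and antigen receptor segments. With arrays there is no read depth, and precision is limited by their number, 5. Nothing in the labels ties an array to 1 animal of its own, so p-values measure only the spread between these samples, part of which may be technical. Some genes of the lists are counted in them but are not reported here by name.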

Additional observations from a re-analysis of the deposited data

Results flagged for a closer look

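Of 294 values screened (each named gene and each list mean over the 5 WT arrays), 41 had 1 array far from the other 4, with a gap to the nearest over the whole range above 0.71, Dixon's 95% critical value. Chance gives about 1 in 20, or 15. Genes of large SD are more likely to be screened, so the count is not a test. Log2 signals follow, with the range of the other arrays.

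WT replicate 5 accounted for 20 of the 41. It was high for Ccr3 (4.86, others 4.37 to 4.50), Col1a1 (7.0, others 6.88 to 6.90), Gprc5c (6.09, others 5.74 to 5.82), H2ac4 (9.37, others 6.54 to 7.36), Ibsp (4.13, others 3.45 to 3.64), Il5ra (4.27, others 3.91 to 4.00), Kitl (3.97, others 3.33 to 3.46), Mrc1 (4.66, others 4.44 to 4.47), Spa17 (9.84, others 6.35 to 7.24) and Vpreb2 (7.11, others 6.79 to 6.88). It was low for Cdk4 (9.20, others 10.01 to 10.20), Eif2s3y (3.55, others 7.31 to 8.11), Gnb1 (7.91, others 9.50 to 10.06), Hemgn (7.02, others 7.44 to 7.49), Meis1 (9.68, others 10.12 to 10.27), Minpp1 (5.24, others 7.75 to 8.11), Morf4l1 (11.65, others 11.68 to 11.70), Rer1 (7.25, others 8.14 to 8.33), Rplp0 (11.40, others 12.15 to 12.41) and sex-linked list mean (5.75, others 7.27 to 7.77).

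WT replicate 6 was high for Cd79a (5.52, others 4.52 to 4.71), Cd79b (7.33, others 6.52 to 6.69), Ets1 (6.01, others 5.37 to 5.55), H2-Ab1 (8.82, others 6.84 to 7.10), Prf1 (6.66, others 6.44 to 6.50), Vpreb3 (7.36, others 6.19 to 6.41) and monocyte, macrophage and dendritic cell list mean (6.11, others 5.91 to 5.95). WT replicate 2 was high for Angpt1 (10.78, others 10.61 to 10.65), Ifit1 (5.48, others 4.71 to 4.83), Lck (6.57, others 6.21 to 6.30) and Ripor2 (9.11, others 9.06 to 9.07) and low for Chil3 (3.40, others 3.78 to 3.94) and Ppp1r12a (9.23, others 9.27 to 9.27). WT replicate 3 was high for Bcl11b (6.48, others 6.43 to 6.43), Rhd (5.23, others 4.66 to 4.82) and Xcr1 (4.90, others 4.61 to 4.67). WT replicate 4 was high for Ly6g (4.16, others 3.78 to 3.89), Prss34 (7.81, others 5.89 to 6.31) and Topors (8.77, others 8.73 to 8.73) and low for Ldb1 (9.72, others 9.86 to 9.89) and Mospd1 (5.27, others 7.58 to 8.23). Several of these differences, such as those of Topors, Ripor2, Morf4l1 and Ppp1r12a, are under 0.1 log2 unit, because the other arrays coincide or nearly coincide.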

How the results depend on the processing

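The count of rows above the threshold depended most on which background set it. It was 1542 with the 95th percentile of the negative controls, 2706 with the 90th and 627 with the 99th, 13775 and 9131 with the 95th and 99th percentiles of the olfactory receptors, and 12447 with the 95th of them without WT replicates 2 and 6. The count below was 12173, 16389 and 11932 with those 3 olfactory settings, against 26391. With each array left out in turn, 1449 to 1611 rows were above and 26201 to 26432 below, and quantile normalization (1561 above), median centring (1927), the value table (1542), all 5 arrays over it (1501) and leaving out replicates 2 and 6 (1403) stayed within 1.5 times. Against the 99th percentile of the negative controls Kit lay at -0.829 and Cd34 at -0.696. Against the olfactory 95th and 99th percentiles, and the 95th without replicates 2 and 6, Ly6a lay at 1.79, 1.17 and 1.39, and Flt3 at 2.88, 2.25 and 2.38. Flt3 lay at 0.454 against the 90th percentile of the negative controls, and was called below at the 99th (-2.29) and without replicates 2 and 6 (-0.987); with 1 array left out it ranged from -0.658 to -0.148. These shifts follow from the thresholds; for Flt3 without replicates 2 and 6 they follow from its values there. With the row of lowest mean per gene, the genes above the negative controls numbered 1 in place of 2 among homing genes, 6 in place of 7 in the cell cycle and 11 in place of 13 among housekeeping genes, and the other lists kept their counts. The variance alternatives, with lowest adjusted p of 0.869 to 0.944, could hardly make a call and say nothing about stability. No paired analysis was possible because the calls come from 1 group.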
